A study of Mus musculus with 21 samples.

Results

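RNA was compared between mouse striatum injected with the virus labelled GCas9 (4 libraries) and striatum injected with the virus labelled Cas9 (4 libraries). These are 8 of the 21 libraries of the study, chosen by their titles. They belong to a second set whose titles are numbered 1 to 12, and which also holds 4 libraries of a GFP virus. A first set, with titles numbered 1 to 9, holds viruses also labelled Cas9 and GCas9 beside libraries labelled WT (3 libraries each). It is used only in the closing comparison. All mice of both sets are labelled wild type, the carrier was an adeno-associated virus (AAV, a virus that delivers a gene and does not replicate), and tissue was taken 3 weeks after the injection. The age of the mice is given as 3 weeks in one label and as 3 months in another. The labels name no promoter, guide RNA, serotype or dose, so the cell types that made the nuclease are not known from them. They do not say whether each library came from 1 animal, and p-values therefore measure only the spread between these libraries.

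Cas9 is the bacterial nuclease used for genome editing. The labels leave the name GCas9 unexplained. The study is known for a Cas9 joined to part of Geminin, and its title speaks of a shortened half-life and of less neuronal toxicity. Geminin is the inhibitor of Cdt1, which loads the replicative helicase onto DNA, and it is removed through the anaphase-promoting complex, a ubiquitin ligase that is also active in cells that no longer divide, such as neurons. The comparison of GCas9 with Cas9 virus asks whether striatal RNA differs between the nuclease described as shorter-lived and the unmodified one. Both were delivered by AAV, and the labels do not say whether dose was matched. The striatum consists mainly of inhibitory spiny neurons, which carry dopamine receptors and signal through DARPP-32. It lies under the cortex and beside the lateral ventricle, whose wall carries ciliated ependymal cells and dividing progenitors and whose cavity holds the choroid plexus. AAV and its cargo can draw an innate antiviral response, in which interferons switch on a shared set of genes, and a later response of T and B lymphocytes.

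Reads assigned to genes numbered 6091590 to 7694195 in the Cas9 libraries, 7809171 to 11069902 in the GCas9 libraries and 7894081 to 9748547 in the GFP libraries, so depth moved with the comparison and every GCas9 library was deeper than every Cas9 library. Mitochondrially encoded transcripts took 1.03 to 2.18% of the reads. Log2 levels correlated at 0.946 to 0.981 between pairs of the 12 libraries. Markers of spiny neurons matched the tissue label in all 12. Ppp1r1b, which encodes DARPP-32, was read at normalized counts of 28428, 25492, 22269 and 24689.7 in Cas9 libraries 1 to 4 and at 25227, 26399, 23950.1 and 28126 in GCas9 libraries 1 to 4. In bulk tissue, fewer cells of a type and less RNA per cell cannot be told apart.

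No gene passed the threshold between GCas9 and Cas9 virus. Of 15428 genes whose normalized counts averaged 10 or more, limma called 0 at an adjusted p under 0.05 (0%), and the smallest adjusted p was 0.995, which every gene named below shares or exceeds. At an unadjusted p under 0.05 there were 592 genes, fewer than the 771 that 5% of the genes would make. They were 350 genes with a higher mean under GCas9 (2.27% of the genes tested) and 242 with a lower one (1.57%). All 4 GCas9 libraries lay above all 4 Cas9 libraries for 189 genes (1.23%) and below them for 123 genes (0.797%). On the recovered read counts, edgeR's quasi-likelihood test and DESeq2 also called 0 genes, with smallest adjusted p of 0.999 and 0.127, the latter for Slc17a7. The median absolute log2 difference was 0.0959 and the median standard error was 0.136, so for a typical gene the difference between the viruses was smaller than its error. Without Cas9 library 1, 1066 genes had an unadjusted p under 0.05 and again 0 passed the threshold. The differences below are accordingly descriptions of these 8 libraries, given as normalized counts or as log2 differences of GCas9 minus Cas9 with their standard errors.

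Transcripts typical of excitatory neurons of the cortex had large log2 differences. Of those below, Neurod6 and Nrn1 averaged under 10 with Cas9 and with GFP and passed the filter only through the GCas9 libraries. Slc17a7, the vesicular glutamate transporter of cortical neurons (chr7:45163949-45176142), was read at 64.4, 20.8, 47.2 and 55.3 in Cas9 libraries 1 to 4 and at 312, 280.0, 68.2 and 804 in GCas9 libraries 1 to 4. The GFP libraries were at 44.2, 74.4, 21.9 and 61.0. All GCas9 libraries were above all Cas9 libraries, with library 3 just above and library 4 farthest away (2.58 ± 0.60, unadjusted p = 0.000743 by limma). Neurod6, a transcription factor of cortical projection neurons (chr6:55677822-55681263), was read at 4.52, 1.39, 8.26 and 1.23 with Cas9 and at 23.8, 22.6, 11.2 and 48.6 with GCas9, a difference of 2.59 ± 0.55. Nrn1, an activity-regulated growth protein (chr13:36725361-36735131), ran from 1.39 to 10.2 with Cas9 and from 14.6 to 39.0 with GCas9 (1.91 ± 0.53). Cck, a neuropeptide of cortical neurons that was listed with the interneuron markers (chr9:121489824-121495694), was read at 30.5, 45.9, 41.3 and 30.7 with Cas9 and at 94.4, 78.6, 49.8 and 261 with GCas9 (1.42 ± 0.40). In each of these 4 genes GCas9 library 3 was the lowest and library 4 the highest of its group, apart from Nrn1, where library 1 was the lowest.

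**Figure D1:**
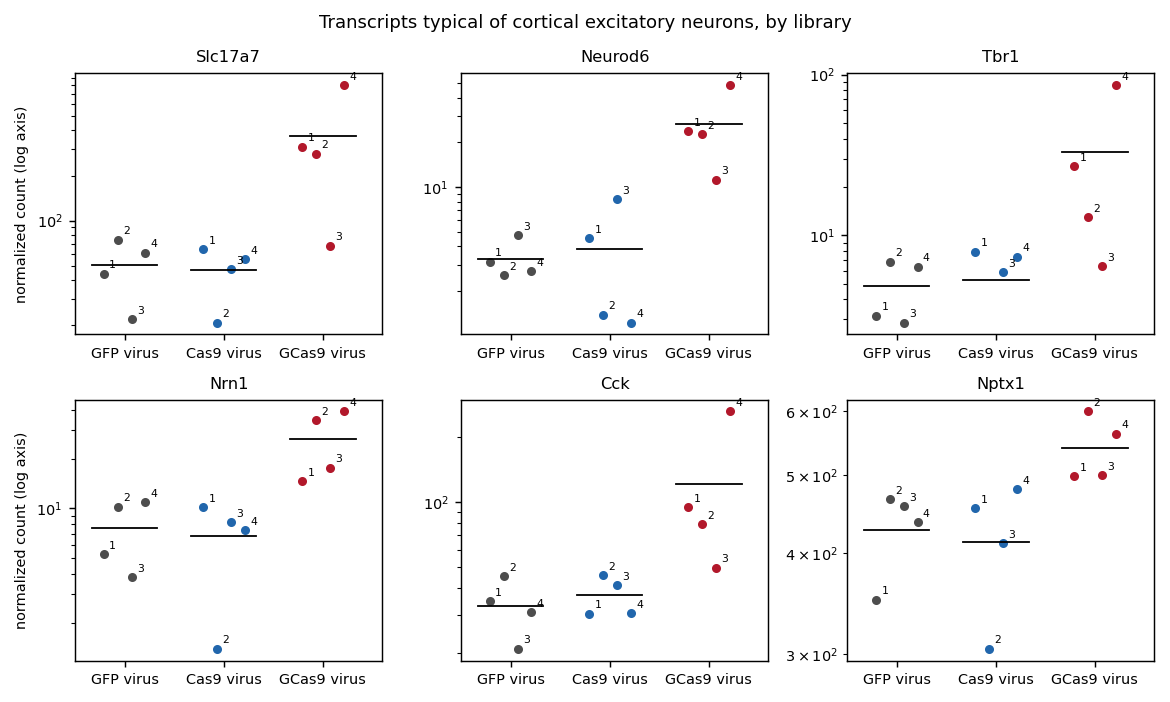
Normalized counts on a log axis of 6 transcripts typical of cortical excitatory neurons in the 12 libraries of the second set. Points are libraries, marked with their replicate number, and bars are group means; GCas9 libraries 1, 2 and 4 lie above all Cas9 libraries in every panel, and library 3 lies lowest or near the lowest of the GCas9 group. Tbr1 in Cas9 library 2 was 0 and cannot be drawn on this axis.

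Of the 16 genes on the list of cortical excitatory neurons, 11 were abundant enough to test. Among these, 10 had a higher mean with GCas9, 6 reached an unadjusted p under 0.05, 5 had groups that did not overlap, and the median difference was 0.28 against 0.0018 over all genes tested. Over all genes tested, 3.84% reached that p and 2.02% had groups that did not overlap. Neurod6, Nrn1 and Tbr1 averaged under 10 with Cas9 and with GFP and passed the filter only through the GCas9 libraries. The counts and the median of the list are therefore partly set by the filter. Summed over the 16 genes, normalized counts ran from 2941 to 3386 in the Cas9 libraries, from 2978 to 3447 in the GFP libraries and from 3625 to 4592 in the GCas9 libraries. On leaving out 1 library the median ran from 0.24 without GCas9 library 1 to 0.44 without GCas9 library 3. Without Cas9 library 4 it was also 0.44. With log2 depth as a covariate it was 0.14 with 1 member at that p, where 4.69% of all genes tested were. The following 3 members were singled out after their values were seen. Tbr1, a transcription factor of deep-layer neurons, was read at 7.90, 0, 5.90 and 7.37 with Cas9 and at 26.9, 12.9, 6.42 and 86.0 with GCas9, and these groups overlapped (2.23 ± 0.80). Nptx1, a secreted protein of excitatory synapses, was at 455, 304, 412 and 480.1 with Cas9 and at 498, 599.8, 500.0 and 563 with GCas9 (0.40 ± 0.14). Cux1, an upper-layer factor that other cells also make, was at 753, 791, 669 and 783 with Cas9 and at 1023, 869, 915 and 814 with GCas9 (0.27 ± 0.083). The large log2 differences therefore belonged to genes with few reads in striatum, and the abundant members differed by less. Neurod2, below the level needed for the test, was read at 4.52, 2.78, 2.36 and 3.68 with Cas9 and at 12.3, 26.9, 12.8 and 27.1 with GCas9. Lamp5, which striatum also expresses, overlapped between the groups, at 983 to 1205 with Cas9 and 985 to 1353 with GCas9. How much cortex each dissected sample held was not tested. Library levels of this list are given beside those of the synaptic list below.

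Nr4a2, a nuclear receptor found in deep cortical layers and among activity-induced genes, was highest in GCas9 library 4, as were Slc17a7, Neurod6, Nrn1, Cck and Tbr1. It was read at 13.6, 13.9, 12.98 and 13.5 with Cas9 and at 53.7, 18.3, 18.5 and 162 with GCas9 (1.56 ± 0.54). None of the other 22 immediate early genes tested reached an unadjusted p under 0.05. Over all 23, 11 had a higher and 12 a lower mean, with a median of -0.01. Grm2, a presynaptic glutamate receptor of cortical terminals, was read at 13.6, 15.3, 10.6 and 11.1 with Cas9 and at 14.6, 52.8, 24.1 and 34.2 with GCas9 (1.12 ± 0.37), and GCas9 library 1 lay within the Cas9 range.

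A second group of genes with a higher mean under GCas9 differed little in size but kept narrow ranges. Kcnj9, which encodes the inwardly rectifying potassium channel subunit GIRK3 (chr1:172320501-172329318), was read at 348, 311, 258 and 325 with Cas9 and at 438, 378, 392 and 440.5 with GCas9 (0.41 ± 0.094, unadjusted p = 0.000655 by limma). The GFP libraries lay at 321, 319, 313 and 322, inside the Cas9 range. Tmed9, a cargo receptor of early secretory transport (chr13:55573732-55597697), was at 802, 744, 641 and 833 with Cas9, at 951, 936, 929 and 936 with GCas9 and at 810.3, 869.5, 835 and 759 with GFP (0.32 ± 0.080). For both genes the GCas9 libraries stood above the other 8 libraries of the set. Uap1, an enzyme that makes UDP-N-acetylglucosamine, was at 418, 414, 453 and 419 with Cas9 and at 519, 496, 478 and 538 with GCas9 (0.25 ± 0.068). Dlgap1, a scaffold of the postsynaptic density, was at 1332, 1389, 1209 and 1335 with Cas9 and at 1586, 1560.5, 1472 and 1530.0 with GCas9 (0.23 ± 0.065). GFP libraries overlapped with the GCas9 range for Dlgap1, with a highest value of 1503.

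For other genes the Cas9 libraries were the ones that stood apart. Apex2, a nuclease of base excision repair (chrX:150519519-150589868), was read at 67.8, 65.3, 77.9 and 76.1 with Cas9, at 95.2, 92.6, 107 and 98.8 with GCas9 and at 99.98, 108, 100.1 and 95.5 with GFP. Its difference was 0.45 ± 0.11 between GCas9 and Cas9, -0.49 between Cas9 and GFP and -0.04 between GCas9 and GFP. B3gat1, the glucuronyltransferase that makes the HNK-1 carbohydrate of neural adhesion molecules (chr9:26733728-26763101), was at 357, 329, 325 and 309 with Cas9, at 419, 432, 419.7 and 465 with GCas9 and at 475, 444, 357 and 431 with GFP (0.39 ± 0.090). Fam131a was at 1003, 1006, 989 and 945 with Cas9 and at 1145, 1159, 1124 and 1084 with GCas9 (0.19 ± 0.055), and all 4 GFP libraries, at 1069 to 1140, were above the Cas9 range. Among the 15 leading genes of this direction, Cas9 was below GFP in 14 and GCas9 was above GFP in 14, and in 8 Cas9 was farther from GFP than GCas9 was. The GFP libraries enter both of these differences, so the signs are not separate observations. The 15 were also chosen because the GCas9 and Cas9 groups lie apart, which by itself tends to place GFP between them. Others of the 15, Neurl1b, Kdelc1, Sharpin, Trpv2 and Fbll1, had differences of 0.44, 0.43, 0.27, 0.35 and 0.35. Against GFP virus itself, limma called 0 genes for Cas9 (0%, with 6.24% at an unadjusted p under 0.05) and 0 for GCas9 (0%, with 6.48%), with smallest adjusted p of 0.527 and 0.0653. Exons of Kcnj9, B3gat1, Apex2, Fam131a and Dlgap1 overlap a gene on the other strand, as do those of Nrn1, Cux1, Grm2, Nabp2, Cdc14a, Penk, Ppp1r1b, Syn1, Ciita, Cd3e, Ccna2, Rrm2b and Cdkn1a, and the library kits named in the labels do not show that strand was kept, so reads of such pairs cannot be told apart.

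**Figure D2:**
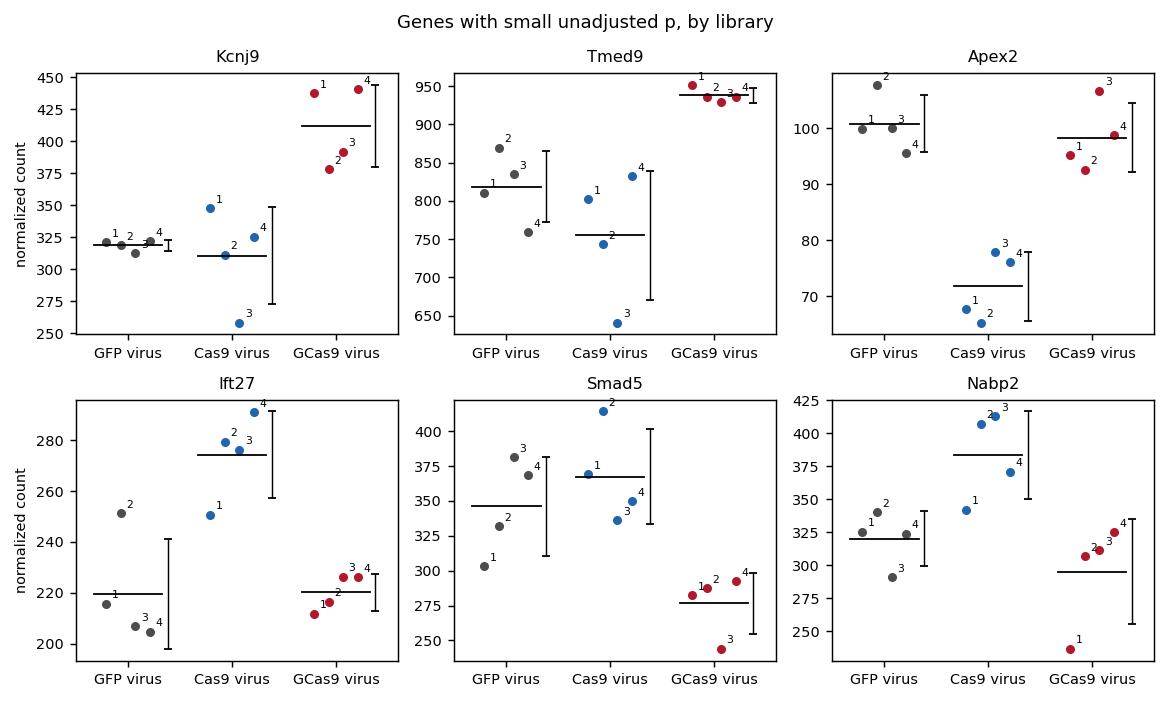
Normalized counts of 3 genes above (Kcnj9, Tmed9, Apex2) and 3 genes below (Ift27, Smad5, Nabp2) the Cas9 level in all GCas9 libraries, in the 12 libraries of the second set; the vertical axes do not start at 0. Points are libraries with their replicate number, horizontal bars are means and the bars at the side show the mean ± SD of 4 libraries; for Kcnj9 and Tmed9 the GCas9 group stands apart from both others, and for Apex2 the Cas9 group does.

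Genes with a lower mean under GCas9 had mixed roles. Smad5, which carries signals of bone morphogenetic proteins to the nucleus (chr13:56703010-56742377), was at 369, 414, 336 and 350.0 with Cas9 and at 283, 288, 244 and 292 with GCas9 (-0.41 ± 0.099, unadjusted p = 0.00104 by limma). The GFP libraries, at 303 to 381 for Smad5, lay above all GCas9 libraries. Nabp2, a single-stranded DNA binding protein that takes part in the response to breaks (chr10:128401395-128411492), was at 342, 407, 413 and 371 with Cas9 and at 236, 307, 311 and 325 with GCas9 (-0.38 ± 0.11). Here the GFP libraries, at 291 to 340, lay between and overlapped with the GCas9 range. Sap130, a subunit of a histone deacetylase complex, was at 265, 207, 281 and 187 with Cas9 and at 156, 172, 172 and 147 with GCas9 (-0.52 ± 0.14). Slit2, a secreted guidance protein, was at 93.7, 101, 111 and 118 with Cas9 and at 71.4, 57.1, 88.3 and 46.2 with GCas9 (-0.72 ± 0.20).

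A further 6 genes of this direction follow. Smc4, a condensin subunit that compacts chromosomes for division, was read at 63.2, 63.9, 70.8 and 70.0 with Cas9 and at 51.4, 50.6, 45.7 and 44.6 with GCas9 (-0.47 ± 0.15). Tipin, a protein of the replication fork, was at 151, 146, 186 and 172 with Cas9 and at 131, 125, 119 and 136 with GCas9 (-0.35 ± 0.10). Cdc14a, a phosphatase of cell division and of cilia, was at 58.7, 54.2, 86.2 and 71.2 with Cas9 and at 46.8, 51.7, 42.5 and 42.2 with GCas9 (-0.53 ± 0.17). Ift27, of the intraflagellar transport machinery, was at 251, 279, 276 and 291 with Cas9 and at 212, 216, 226 and 226 with GCas9 (-0.31 ± 0.089). Dnaic2, a dynein chain of motile cilia, was at 66.6, 63.9, 74.4 and 82.3 with Cas9 and at 55.3, 45.2, 52.2 and 36.6 with GCas9 (-0.60 ± 0.19). Tubb2b, a tubulin of immature neurons, was at 263, 416, 429.6 and 306 with Cas9 and at 205, 255, 201 and 259.7 with GCas9 (-0.60 ± 0.17). All 6 were chosen from the genes whose 2 groups did not overlap (0.797% of the genes tested in this direction), and none passed the threshold. Car12, Kctd18, Aasdh and Mtmr1 were also among the 15, with differences of -0.30, -0.35, -0.30 and -0.22. The exons of Kctd18 overlap over a long stretch with those of Sgo2a on the other strand.

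Transcripts that define the spiny neurons differed little, and their libraries overlapped in each gene named here. The list of direct-pathway genes had 5 of 10 members higher and a median of -0.01, and the list of genes shared by both pathways had 21 of 28 higher and a median of 0.03. All 9 indirect-pathway genes tested had a higher mean with GCas9, with a median of 0.09, and none reached an unadjusted p under 0.05. Adora2a, the adenosine receptor of indirect-pathway neurons, was read at 4501, 3237, 3063 and 3269.9 with Cas9 and at 4749, 3993, 4113 and 3706 with GCas9 (0.25 ± 0.12). Cas9 library 1 lay inside the GCas9 range. Drd2 was at 1955, 1703, 1382 and 1618 with Cas9 and at 1748, 1665, 1699 and 1947 with GCas9 (0.09 ± 0.092), and Penk, which encodes enkephalin, overlapped throughout (0.02 ± 0.13). On the direct-pathway side, the dopamine receptor Drd1a was at 4041, 4306, 3965 and 4177 with Cas9 and at 4491, 3968, 4515 and 4950.1 with GCas9 (0.12 ± 0.068), and Tac1, the substance P precursor, differed by -0.03 ± 0.10. Ppp1r1b differed by 0.04 ± 0.10. Actn2, an actin crosslinker of dendritic spines, was the 1 shared gene with an unadjusted p under 0.05 (0.24 ± 0.10), and its libraries overlapped. That p was reached by 3.84% of all genes tested.

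Synaptic and general neuronal genes had slightly higher means with GCas9. Of 32 genes of synaptic vesicle release, 26 were higher, 6 at an unadjusted p under 0.05, and the median was 0.08. Over all genes tested, 3.84% reached that p in either direction. Of 18 general neuronal genes 15 were higher (2 at that p, median 0.08), and of 33 genes of glutamate receptors and the postsynapse 25 were higher (2 at that p, median 0.08). Syn1, which tethers synaptic vesicles, was read at 2429, 2389, 2325 and 2308 with Cas9 and at 2734, 2650.3, 2567 and 2864 with GCas9 (0.19 ± 0.067). Dnm1, the dynamin of vesicle recycling, was at 4341, 3816, 3852 and 3929 with Cas9 and at 5258, 4337, 4398 and 4424 with GCas9, with an overlap of a few counts (0.21 ± 0.076). Elavl3, a neuronal RNA-binding protein, was at 412, 432, 482 and 494 with Cas9 and at 551, 521, 524 and 574 with GCas9 (0.26 ± 0.096). GCas9 libraries 4 and 1 were the highest of the 8 on both the synaptic and the cortical list, while the synaptic level of Cas9 library 1 lay above that of GCas9 libraries 2 and 3. The mean log2 level of the synaptic list was 10.75, 10.67, 10.61 and 10.64 in the Cas9 libraries and 10.79, 10.69, 10.75 and 10.81 in the GCas9 libraries, while that of the cortical list was 6.55, 5.52, 6.45 and 6.35 against 7.19, 7.08, 6.71 and 7.77. The part of cortical RNA in the synaptic difference was not tested. With the log2 depth of each library as a covariate, the medians of the synaptic, general neuronal and shared spiny neuron lists were -0.03, -0.08 and -0.12.

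Immune transcripts had the largest list medians, and the widest spread. All 40 interferon-stimulated genes had a lower mean with GCas9 (median -0.82), all 20 genes of MHC class I presentation (median -0.84) and all 10 of MHC class II presentation (median -0.68). Of the 40, 1 reached an unadjusted p under 0.05, and 0 of the 20 and 0 of the 10 did. No member had groups that did not overlap. Among all genes tested, 3.84% reached that p and 2.02% had groups that did not overlap. Only 49.4% of all genes tested had a lower mean, but members of these lists rise and fall together from library to library and are not separate observations. The mean log2 level of the interferon list was 6.89, 8.64, 8.91 and 6.31 in Cas9 libraries 1 to 4, 7.12, 8.35, 6.61 and 5.23 in GCas9 libraries 1 to 4 and 8.69, 8.25, 8.46 and 5.98 in GFP libraries 1 to 4. High and low libraries occurred in all 3 groups, with Cas9 libraries 2 and 3, GCas9 library 2 and GFP libraries 1 to 3 at the high end. Ifi27, a mitochondrial interferon-induced protein, was read at 754, 1237, 1305 and 589 with Cas9 and at 516, 949, 495 and 303 with GCas9 (-0.82 ± 0.35). Irf9, the DNA-binding subunit of the interferon-activated factor ISGF3, was at 377, 1063, 1192 and 341 with Cas9 and at 330.1, 599, 254 and 147 with GCas9 (-1.11 ± 0.53), and Xaf1, a pro-apoptotic interferon target, was at 109.5, 219.6, 212 and 89.6 against 92.9, 172, 46.5 and 39.8 (-0.98 ± 0.46).

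With the replicate numbers matched, the direction was the same in every pair for some immune genes and not for the lists. Each of the 4 GCas9 libraries was below the Cas9 library of its number for Ifi27, Irf9 and Xaf1, the 3 members of smallest p. The mean level of the interferon list, however, was higher in GCas9 library 1 than in Cas9 library 1, and that of the MHC class I list was higher in GCas9 library 2 (9.34) than in Cas9 library 2 (9.18). With the replicate number as a block in the fit of 3 groups, 18 of the 40 interferon-stimulated genes and 7 of the 20 MHC class I genes had an unadjusted p under 0.05, and with the block and only the GCas9 and Cas9 libraries 20 and 14 did. Over all genes tested the share at that p was 4.33% and 4.15% in these fits, against 3.84% without the block. In neither fit did any gene pass the threshold (smallest adjusted p 0.971 and 0.402). The 1 library with the most weight was GCas9 library 2. Without it the medians of the interferon, MHC class I and MHC class II lists were -1.40, -1.51 and -1.28, with 9, 11 and 8 members at an unadjusted p under 0.05, where 5.71% of all genes tested were. Without GCas9 library 4 they were -0.32, -0.35 and -0.27 with 0 members each, without Cas9 library 3 the first 2 were -0.49 and -0.54, and without Cas9 library 2 the interferon and class II medians were -0.54 and -0.46. Without Cas9 library 4 the interferon median was -1.25 with 6 members at that p, where 3.78% of all genes tested were. Without GCas9 library 1 the class II median was -0.38. With log2 depth as a covariate the 3 medians turned to 1.41, 1.41 and 1.76, whereas thinning all libraries to the depth of the shallowest gave -0.87, -0.82 and -0.63. The direction of the immune lists thus held under thinning and did not hold when depth entered the fit, in which Cas9 and GCas9 libraries share no depth.

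Part of the antiviral list carries the same letters next to the start of transcription. The letters searched were GAAANNGAAA on both strands, a core of the interferon-stimulated response element, in the 250 bases before to 50 bases after the start in RefSeq promoters (GRCm38.p6). A match was found for 16 of the 28 interferon-stimulated genes with a promoter in that table (57.1%) and for 5 of 17 MHC class I genes (29.4%), compared with 3.99% of all 27025 genes with one. Shown are bases 170 to 51 before the start of 4 members chosen because they hold a match, with the matching letters in capitals.
Isg15 (chr4:156200869-156200988, minus strand): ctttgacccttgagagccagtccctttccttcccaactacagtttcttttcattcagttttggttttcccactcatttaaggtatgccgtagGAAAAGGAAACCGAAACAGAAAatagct
Ifit1 (chr19:34640719-34640838, plus strand): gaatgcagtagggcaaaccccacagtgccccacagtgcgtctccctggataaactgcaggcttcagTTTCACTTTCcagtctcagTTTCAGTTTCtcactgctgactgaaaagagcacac
Ifit3 (chr19:34583359-34583478, plus strand): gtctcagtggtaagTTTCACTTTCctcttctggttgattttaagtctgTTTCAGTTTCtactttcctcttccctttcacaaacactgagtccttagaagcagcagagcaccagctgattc
B2m (chr2:122147517-122147636, plus strand): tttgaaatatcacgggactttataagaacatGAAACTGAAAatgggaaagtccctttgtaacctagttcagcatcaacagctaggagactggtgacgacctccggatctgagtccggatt
Isg15 holds 3 overlapping matches in this stretch, Ifit1 and Ifit3 hold 2 each and B2m holds 1. A match describes the letters and does not show that a factor was bound.

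The 4 genes with these promoters followed the list. Isg15, a ubiquitin-like modifier, was read at 102, 717, 951 and 55.3 with Cas9 and at 119.8, 300.5, 89.1 and 17.5 with GCas9 (-1.51 ± 1.05). Ifit1, which binds viral RNA, was at 235, 2305, 3444 and 139 with Cas9 and at 497, 685, 309.8 and 52.6 with GCas9 (-1.38 ± 1.08), and Ifit3, its partner, was at 454, 1692, 2116 and 254 against 669, 1203, 346 and 86.8 (-1.02 ± 0.89). The GFP libraries were at 627, 452, 491 and 41.9 for Isg15. These differences were of the size of their standard errors, and for all 3 genes library 4 was the lowest of the GFP, of the Cas9 and of the GCas9 group. B2m, the constant chain of MHC class I, was at 2951, 5736, 5078 and 2315 with Cas9 and at 1191, 5893, 1422 and 1063 with GCas9 (-1.06 ± 0.52), and the class I heavy chain H2-D1 was at 7558, 11866, 9186 and 4476 against 3051, 12652, 2824 and 1728 (-1.07 ± 0.55). For both, GCas9 library 2 lay above the highest Cas9 library and the other 3 GCas9 libraries below the lowest. Psme2, a proteasome activator induced by interferon, differed by -0.42 ± 0.22. In class II, H2-Ab1 was at 605, 1081, 713 and 413 with Cas9 and at 200.4, 2143, 315 and 131 with GCas9 (-0.86 ± 0.77), H2-DMb2 differed by -0.71 ± 0.40, and Ciita, the class II transactivator, differed by -0.75 ± 0.58.

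**Figure D3:**
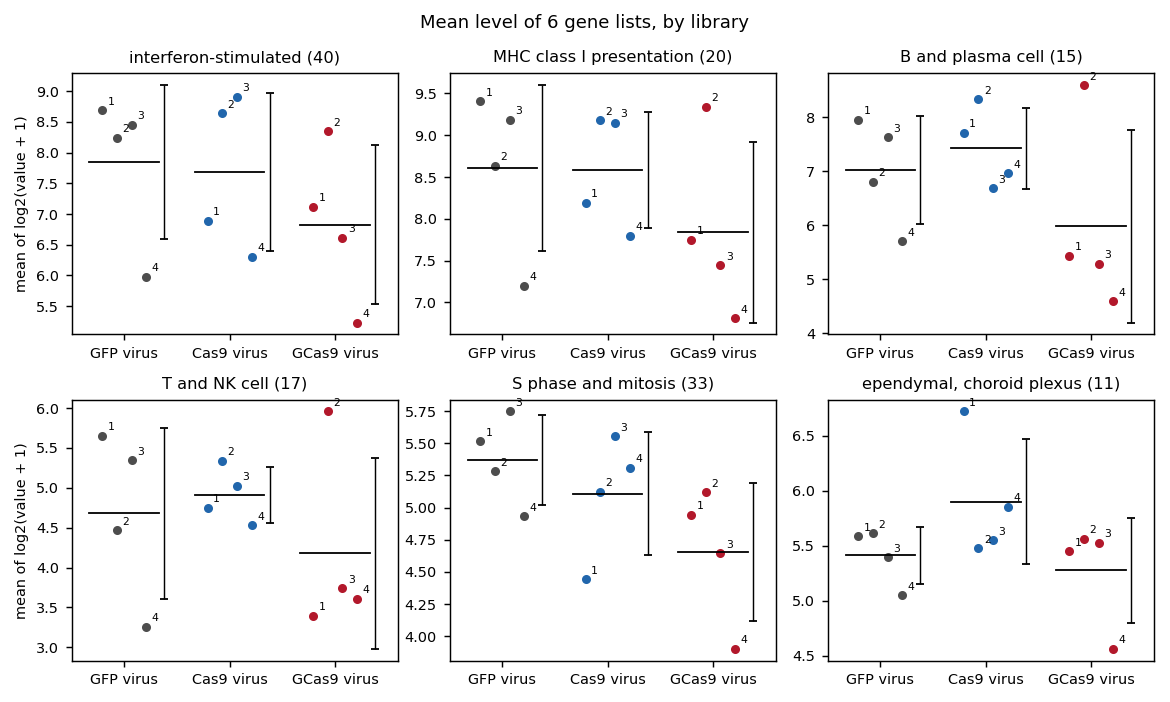
Mean of log2(normalized count + 1) over the tested members of 6 gene lists (number of members in brackets) in each library of the second set. Points are libraries with their replicate number, horizontal bars are means and the bars at the side show the mean ± SD of 4 libraries. GCas9 library 2 is the highest of its group in the 4 immune lists. GCas9 libraries 1, 3 and 4 lie below all Cas9 libraries in these lists except the interferon list, where libraries 1 and 3 lie above Cas9 library 4. Cas9 library 1 is high in the ependymal and choroid plexus list.

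Lymphocyte markers showed the same single high library. Of 17 T and NK cell genes tested, 15 had a lower mean with GCas9 (1 at an unadjusted p under 0.05, median -0.71), and of 15 B and plasma cell genes 14 did (5 at that p, median -1.52). Over all genes tested, 3.84% reached that p. Cd79b, a chain of the B cell receptor, was read at 31.6, 40.3, 18.9 and 27.0 with Cas9 and at 2.30, 42.0, 9.63 and 2.39 with GCas9 (-1.80 ± 0.67). Cd79a, its partner, was at 40.7, 57.0, 8.26 and 41.7 against 7.68, 34.5, 2.41 and 1.59 (-2.11 ± 0.80), and Iglc2, an immunoglobulin light chain, was at 206, 138, 31.9 and 47.9 against 4.61, 128, 8.03 and 8.76 (-2.37 ± 0.92). Igkc, the most abundant light chain, was at 3288, 6843, 2481 and 2013 with Cas9 and at 1269, 13795, 870.0 and 341 with GCas9 (-1.11 ± 0.89). The GCas9 group thus held both the highest and the 3 lowest Igkc values of these 8 libraries. For T cells, Cxcr3, a chemokine receptor of effector cells, was at 20.3, 22.2, 24.8 and 28.2 with Cas9 and at 4.61, 35.5, 4.01 and 2.39 with GCas9 (-1.69 ± 0.74), Cd3e was at 16.9, 22.2, 16.5 and 13.5 against 0, 37.7, 5.62 and 7.96 (-1.38 ± 0.86), and Cd2 differed by -0.89 ± 0.51. With the replicate block in the fit of 3 groups, 10 B cell genes and 1 T and NK cell gene had an unadjusted p under 0.05. In that fit 4.33% of all genes tested did. Without GCas9 library 2 the medians were -2.37 for B and -1.19 for T and NK cell genes, with 13 and 8 members at that p, beside 5.71% of all genes tested. Without GCas9 library 4 the B cell median was -0.88, and without GCas9 library 1 the T and NK cell median was -0.45. With log2 depth as a covariate the medians were 1.52 for B and 1.86 for T and NK cell genes.

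Chemokine and complement genes were also lower on average, and the medians of resident and activated microglial genes lay nearer to 0. Of 15 chemokine genes 12 were lower (median -0.60), among them Cxcl13, which attracts B cells, at 167, 507, 558 and 28.2 with Cas9 and 72.2, 200.3, 99.5 and 5.58 with GCas9, Ccl9 (-0.67 ± 0.37) and Cxcl9 (-1.20 ± 0.81). Of 13 complement genes 10 were lower (median -0.21), with C4b at 3391, 5408, 3904 and 2426 against 2345, 5618, 1766 and 648 (-0.88 ± 0.53). No member of either list reached an unadjusted p under 0.05 without the replicate block. With the block in the limma fit across all genes, Cxcl13 (unadjusted p = 0.000144) and C4b (unadjusted p = 0.0176) did, each with an adjusted p of 0.971. In that fit 4.33% of all genes tested had an unadjusted p under 0.05. The pairing behind the block was read from the data, and Cxcl13 was singled out after its values were seen. Cxcl13 was lower in each GCas9 library than in the Cas9 library of its number. The chemokine median was -1.22 without GCas9 library 2 and -0.14 without GCas9 library 4, and the complement median was -0.45 without GCas9 library 2 and -0.03 without GCas9 library 3. Microglial genes had 14 of 22 lower (median -0.06) and genes of activated microglia and macrophages 14 of 27 (median -0.01). Both medians were -0.25 without GCas9 library 2, and without GCas9 library 1 they were 0.05 and 0.16. Of the latter, 13 of 27 had a higher mean, among them the 2 with an unadjusted p under 0.05, Gpnmb and Spp1. Over all genes tested, 3.84% reached that p. Gpnmb, a glycoprotein of phagocytes that is raised in damaged brain, was read at 72.3, 98.7, 55.5 and 54.0 with Cas9 and at 76.0, 304, 171 and 86.8 with GCas9 (0.99 ± 0.35). Spp1, osteopontin, was at 172, 167, 93.2 and 166 with Cas9 and at 179, 234, 232 and 304 with GCas9 (0.68 ± 0.27), and all GCas9 libraries were above all Cas9 libraries. Clec7a, a receptor of activated microglia, was at 9.03, 12.5, 21.2 and 9.82 against 14.6, 51.7, 24.9 and 17.5 (0.90 ± 0.43). GFP libraries lay at 93.7 to 104 for Gpnmb, between the 2 means.

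Astrocytes and oligodendrocytes differed little. Of 18 astrocyte genes 12 were higher with GCas9 (median 0.02). Of 26 genes of reactive astrocytes 16 were lower (median -0.17, 0 at an unadjusted p under 0.05), but the median was -0.40 without GCas9 library 2 and 0.06 without GCas9 library 4. Gfap, the filament protein of reactive astrocytes, was read at 4777, 6404, 5129.5 and 3274 with Cas9 and at 2662, 9235, 5132 and 1451 with GCas9 (-0.37 ± 0.45). Within the GCas9 group library 2 was highest, as for the immune lists, and library 4 lowest. Of 18 oligodendrocyte genes 15 were lower (median -0.10), and none reached an unadjusted p under 0.05. That median ran from -0.19 without GCas9 library 3 to -0.016 without GCas9 library 4.

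Genes of the ventricle wall and the choroid plexus were lower with GCas9 in all 11 members tested (median -0.68). Of these, 1 reached an unadjusted p under 0.05, beside 3.84% of all genes tested. Much of the difference was carried by 1 Cas9 library. Ttr, the transthyretin that choroid plexus makes in bulk, was read at 9771 in Cas9 library 1, at 495, 117 and 92.1 in Cas9 libraries 2 to 4, at 89.1, 334, 295 and 207 in the GCas9 libraries and at 55.3 to 147 in the GFP libraries. Its group difference of -1.21 ± 1.08 became 0.24 without Cas9 library 1, and the median of the list became -0.25. Without GCas9 library 4 that median was -0.33. The ependymal genes had another pattern. Foxj1, the transcription factor of motile cilia (chr11:116330704-116335399), was at 80.2, 76.4, 109.8 and 138 with Cas9 and at 66.8, 94.8, 52.2 and 34.2 with GCas9 (-0.75 ± 0.27), and Ccdc153, an ependymal gene, was at 36.1, 48.6, 82.6 and 104 against 52.2, 51.7, 44.9 and 11.9 (-0.82 ± 0.47). GCas9 library 4 was the lowest of all 12 libraries for both. Whether tissue next to the striatum was taken along in some samples was not tested.

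Genes of cell division had lower means with GCas9. Of 33 genes of S phase and mitosis tested, 31 were lower, 6 at an unadjusted p under 0.05 and 1 with groups that did not overlap, and the median was -0.39. Over all genes tested, 3.84% reached that p and 2.02% had groups that did not overlap. The mean log2 level of the list was 4.44, 5.12, 5.56 and 5.31 in the Cas9 libraries, 4.94, 5.12, 4.64 and 3.90 in the GCas9 libraries and 5.52, 5.28, 5.75 and 4.93 in the GFP libraries. Ccna2, cyclin A2 of S phase (chr3:36564865-36572150), was read at 76.8, 103, 103 and 94.5 with Cas9, at 59.9, 80.8, 76.2 and 69.3 with GCas9 and at 94.6 to 130 with GFP (-0.39 ± 0.15). Ccnb1, cyclin B1 of mitosis, was at 18.1, 29.2, 36.6 and 61.4 with Cas9 and at 23.8, 19.4, 16.9 and 3.98 with GCas9 (-1.23 ± 0.50), and Ccnb2 was at 7.90, 27.8, 29.5 and 24.6 against 6.91, 18.3, 5.62 and 5.58 (-1.23 ± 0.54). Top2a, the topoisomerase of dividing cells, was at 24.8, 50.04, 69.6 and 77.4 with Cas9 and at 56.0, 56.0, 36.9 and 1.59 with GCas9 (-1.13 ± 0.79), and Mki67 was at 20.3, 40.3, 48.4 and 45.4 against 40.7, 40.9, 29.7 and 7.96 (-0.52 ± 0.48). Cas9 library 1 and GCas9 library 4 were the lowest of their groups for both. Without GCas9 library 4 the median of the list was -0.18 with 2 members at an unadjusted p under 0.05, and without Cas9 library 1 it was -0.61 with 7. Of all genes tested, 4.78% and 6.91% reached that p in these fits. Without Cas9 library 3 the median was -0.22, and without Cas9 library 3 or 4 the count at that p was 1. With log2 depth as a covariate the median was 0.41.

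The letters TTTGAA, the cell cycle homology region of mitotic promoters, were found on either strand within the same promoter window in 13 of the 27 listed genes with a promoter (48.1%), compared with 20.2% of all genes with one. The 100 bases before the start of Cdk1, the kinase that drives entry into mitosis, hold 2 of them, shown in capitals.
Cdk1 (chr10:69352913-69353012, minus strand): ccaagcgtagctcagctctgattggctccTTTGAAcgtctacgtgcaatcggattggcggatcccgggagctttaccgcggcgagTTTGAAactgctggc
Cdk1 itself was read at 5.65, 13.9, 25.97 and 17.2 with Cas9 and at 13.1, 22.6, 20.9 and 1.59 with GCas9 (-0.34 ± 0.62), so its 2 groups overlapped and GCas9 library 4 was the lowest.

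Endogenous Geminin and its partners did not separate the viruses. Gmnn (chr13:24751845-24761923) was read at 79.0, 58.4, 56.7 and 49.1 with Cas9, at 59.9, 50.6, 71.4 and 55.0 with GCas9 and at 50.5, 41.9, 48.6 and 50.96 with GFP, a difference of -0.03 ± 0.17 between GCas9 and Cas9. Reads of a viral transcript holding part of Geminin, if any were counted here, cannot be told apart from those of the gene in this table. Of 23 genes of Geminin and replication licensing 16 were lower (median -0.08, 0 at an unadjusted p under 0.05), with the helicase subunits Mcm2 (-0.43 ± 0.30) and Mcm5 (-0.20 ± 0.17) among them. Of 21 genes of the anaphase-promoting complex 13 were lower (median -0.05), and the member of smallest p, Anapc5, was at 1904, 1938, 1803 and 2159.9 with Cas9 and at 2443, 2217, 2067 and 1989.6 with GCas9 (0.16 ± 0.074).

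Genes that answer DNA damage differed little as groups. Of 27 p53 targets 17 were lower with GCas9 (median -0.03) and 2 had an unadjusted p under 0.05, beside 3.84% of all genes tested. Rrm2b, the p53-induced ribonucleotide reductase subunit, was read at 163, 239, 261 and 221 with Cas9 and at 167, 104, 161 and 181 with GCas9 (-0.53 ± 0.17), with Cas9 library 1 inside the GCas9 range. Gtse1, a p53-binding protein of dividing cells, was at 12.4, 16.7, 15.3 and 13.5 against 7.68, 10.8, 9.63 and 3.98 (-0.84 ± 0.35). Cdkn1a, the classical p53 target p21, was at 183, 179, 212 and 217 with Cas9, at 140.5, 214, 122 and 172 with GCas9 and at 175 to 288 with GFP (-0.31 ± 0.18), and its groups overlapped. Of 34 genes of double-strand break repair 20 were lower (median -0.05, 1 at an unadjusted p under 0.05). That gene was Chek1, a kinase of the replication checkpoint, at 13.6, 20.8, 17.7 and 22.1 with Cas9 and at 9.98, 3.23, 8.83 and 19.1 with GCas9 (-0.98 ± 0.42).

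Genes of protein quality control lay close to the median of all genes. The medians were 0.001 for 24 genes of the unfolded protein response, -0.01 for 23 cytosolic heat shock genes, -0.01 for 31 proteasome subunits and -0.03 for 31 lysosomal genes. Small differences in one direction ran through the large complexes. Of 77 ribosomal protein genes 66 were lower (median -0.10, 1 at an unadjusted p under 0.05). Of 74 nuclear genes of oxidative phosphorylation 58 were lower (median -0.07, 0 at that p). All 7 mitochondrially encoded genes tested were lower (median -0.18, 0 at that p). That p was reached by 3.84% of all genes tested. Without GCas9 library 1 these 3 medians were 0.01, 0.04 and -0.001, so the direction for the first 2 rested on that library.

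**Figure D4:**
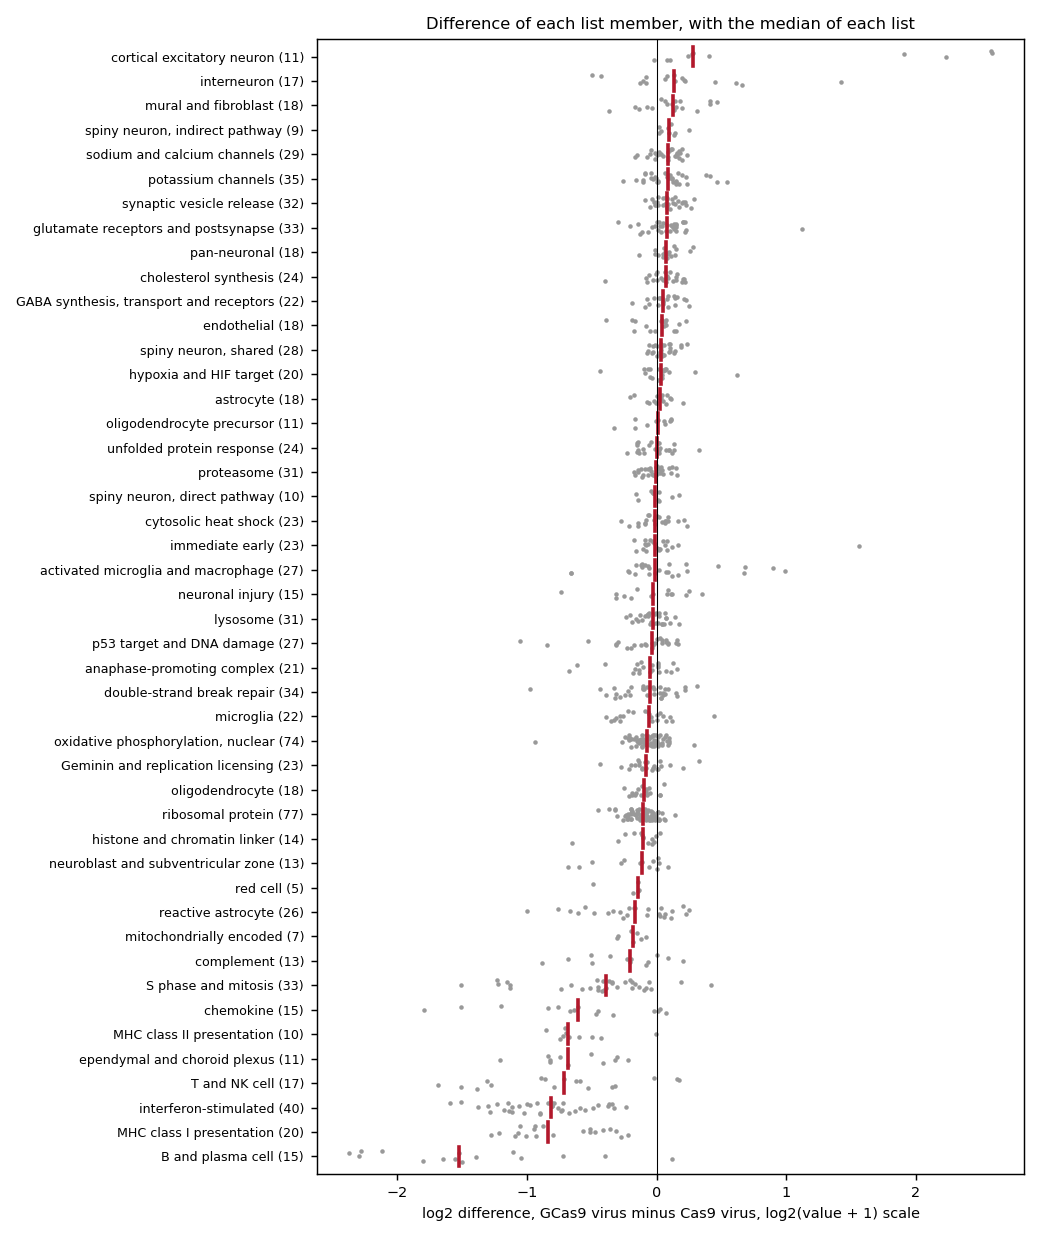
Log2 difference of GCas9 minus Cas9 virus for each tested member of the 46 gene lists (grey points, number of members in brackets) with the median of each list (red bar) and of all genes tested (vertical line, 0.0018). The immune, ependymal and cell division lists lie to the left and the list of cortical excitatory neurons to the right, while lists of spiny neurons and protein quality control lie near the line.

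In the first set, measured in separate libraries, viruses with the same labels gave other directions for some lists and the same for others. There limma called 0 of 14486 genes between GCas9 and Cas9 (0%, with 3.07% at an unadjusted p under 0.05 and a smallest adjusted p of 1.00). The difference between the sets in the GCas9 minus Cas9 value was called for 0 genes (0%, with 4.14% at an unadjusted p under 0.05 and a smallest adjusted p of 0.997). For the list medians that difference itself was not tested. The interferon list was higher with GCas9 in the first set for 39 of 40 genes (median 0.75, against -0.82 in the second set). MHC class I was higher for 20 of 20 (0.42 against -0.84) and MHC class II for 10 of 10 (0.37 against -0.68). S phase and mitosis was higher for 32 of 33 (0.71 against -0.39). As above, members of a list are not separate observations. Of the interferon genes of smallest p in the second set, Irf9, Xaf1 and Ifi27 differed in the first by 0.54 ± 0.70, 0.27 ± 0.74 and -0.07 ± 0.54. Genes of B and plasma cells had a median of 0.04 there against -1.52. Cortical excitatory genes had 5 of 11 higher and a median of -0.02 against 0.28, although Slc17a7 itself differed by 0.66 in the first set and Neurod6 by 1.24. The lists that had the same sign in both sets included oligodendrocyte genes, lower for 18 of 18 in the first set (-0.45 against -0.10). Ependymal and choroid plexus genes did too (-0.31 against -0.68, with 6 of 11 lower in the first set). So did the lists of synaptic vesicle release (0.01 against 0.08) and of GABA genes (0.08 against 0.05). Potassium channels (-0.05 against 0.08) and shared spiny neuron genes (-0.04 against 0.03) did not.

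Among single genes, Ccna2 differed by 0.67 in the first set and by -0.39 in the second, with an unadjusted p of 0.000176 for the difference by limma (adjusted p = 0.997). Of the 15 leading genes with a higher mean in the second set, 12 also had a higher mean with GCas9 in the first set, where 54.6% of all genes did, with differences from -0.06 to 0.66 and 1 at an unadjusted p under 0.05. Of the 15 leading genes with a lower mean in the second set, only 2, Slit2 (-0.29) and Car12 (-0.11), also had a lower mean in the first, and the other 13 had higher means. Kcnj9 differed by 0.09 in the first set, and Smad5 and Nabp2 by 0.10 and 0.09.

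**Figure D5:**
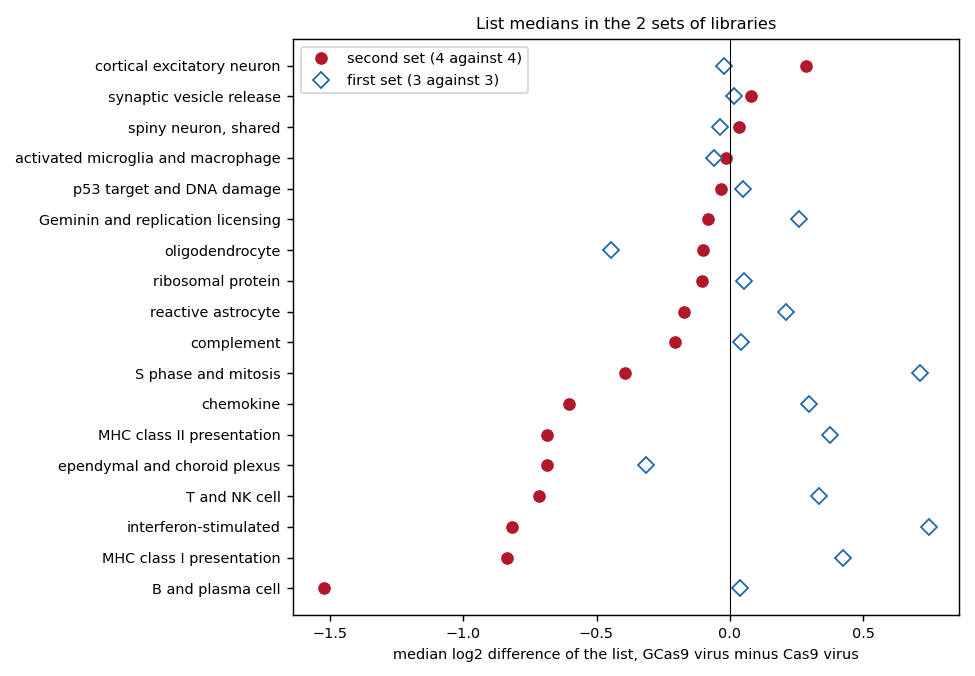
Median log2 difference of GCas9 minus Cas9 virus of 18 gene lists in the second set (filled circles, 4 against 4 libraries) and in the first set (open diamonds, 3 against 3 libraries). The interferon, MHC, chemokine and cell division lists lie on opposite sides of 0 in the 2 sets, and the oligodendrocyte and the ependymal and choroid plexus lists lie on the same side.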

How the data were processed

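RNA was sequenced from striatum, with 4 libraries each of GCas9, Cas9 and GFP virus in the second set and 3 each of WT, Cas9 and GCas9 in the first. Per the submitters' processing notes the build was GRCm38.p3 and the tools were DESeq2, HTSeq, R 3.3.3, SAMtools and STAR 2.5.2b; parameters, annotation and strand setting are not given in the sources used here. Per the labels, RNA had an integrity number over 8.5, cDNA came from a SMARTer kit and libraries from Nextera XT; cDNA is amplified, so reads are not independent molecules.

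The deposited values are a signal per gene, read counts that the authors divided by 1 size factor per library. They were whole multiples of 1 step in each library (100% of values within 0.001), so read counts were recovered for depth, edgeR 4.0.16 and DESeq2 1.42.0. The main test was limma 3.58.1 (R 4.3.3; trend, two-sided, Benjamini-Hochberg) on log2(normalized count + 1) over the 12 libraries of the second set, for genes with a mean of at least 10, at an adjusted p under 0.05. Log2 differences of low genes are understated on this scale. The difference between the sets was fitted over 21 libraries and 6 groups, levels being compared within a set only.

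The 46 lists hold 1113 genes, of which 1109 were in the table (2 by an older symbol). The libraries, lists and named genes were chosen with earlier results of these data known. Named were, per direction, the 15 genes of smallest p with a mean of at least 50 and groups that do not overlap, the 3 members of smallest p of each list and a fixed set of striatal and glial genes; Tbr1, Nptx1, Cux1, Neurod2, Lamp5, Isg15, Ifit1, Ifit3, Igkc, Ttr, Mki67, Top2a, Cdk1 and Cxcl13 were added after their values were seen. Positions are from GENCODE M21. Deviations from the group means correlated between same-numbered Cas9 and GCas9 libraries at 0.12, 0.33, 0.19 and 0.27, each the highest of its row; the pairing is read from the data, since the labels do not say what a number shares. The fits were tested on simulated data. Alternatives were another pseudocount, filter, scaling, weights, depth covariate, block, thinning, tool and each library left out. Some of the genes so named are not reported here.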

Additional observations from a re-analysis of the deposited data

Results flagged for a closer look

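In 13 of 180 groups of 4 libraries examined for single genes, and in 4 of 92 for list levels, 1 library stood far from the other 3 by Dixon's test, which by chance marks about 1 group in 20. GCas9 library 2 accounted for 10 of these 17. Immune genes rise and fall together from library to library, so these flags are not separate observations. Some of the genes, such as Igkc, were added after their values were seen. It was the highest of its group for B2m (5893 normalized counts), H2-D1 (12652 normalized counts), H2-Ab1 (2143 normalized counts), Cxcr3 (35.5 normalized counts), Iglc2 (128 normalized counts), Cxcl9 (39.8 normalized counts), Ccnb2 (18.3 normalized counts) and Igkc (13795 normalized counts). The mean log2 level of the T and NK cell list (5.96) and of the endothelial list (8.40) was also highest there. Apart from Ccnb2, these are genes or lists of antigen presentation, lymphocytes, a chemokine they respond to and vessels.

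Cas9 library 1 was high for Ttr (9771 normalized counts) and Adora2a (4501) and low for the mean log2 level of ribosomal protein genes (8.28). Cas9 library 3 was high for Uap1 (453 normalized counts) and low for Spp1 (93.2). GCas9 library 1 was high for Dnm1 (5258 normalized counts), and GCas9 library 4 was low for the mean log2 level of ependymal and choroid plexus genes (4.56). What sets these libraries apart was not tested.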

How the results depend on the processing

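Under all 14 alternatives and on leaving out each of the 12 libraries, limma, edgeR and DESeq2 called 0 genes at an adjusted p under 0.05. Genes at an unadjusted p under 0.05 numbered 592 in the main fit, 668 with the replicate block, 415 in the fit of GCas9 and Cas9 libraries alone, 724 with log2 depth as a covariate and 1066 without Cas9 library 1. Of these, 59.1% had a higher mean with GCas9 in the main fit, 50.3% with the replicate block and 72.7% with depth. The block in a fit of GCas9 and Cas9 libraries alone, chosen after seeing the data, gave 640 such genes, and neither block made a call. The block in the fit of 3 groups moved the members at an unadjusted p under 0.05 from 6 to 4 for synaptic vesicle release, from 1 to 3 for ribosomal protein genes and from 2 to 4 for activated microglia.

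Log2 depth as a covariate moved 26 of the 46 list medians by more than the spread between libraries; the cause was not tested, and Cas9 and GCas9 libraries share no depth. The medians were then -0.16 for cholesterol synthesis, -0.12 for spiny neuron, shared, -0.083 for pan-neuronal, -0.058 for sodium and calcium channels, -0.056 for GABA synthesis, transport and receptors, -0.052 for spiny neuron, indirect pathway, -0.050 for glutamate receptors and postsynapse, -0.029 for synaptic vesicle release, 0.13 for unfolded protein response, 0.14 for Geminin and replication licensing, 0.17 for p53 target and DNA damage, 0.17 for ribosomal protein, 0.20 for lysosome, 0.24 for neuronal injury, 0.24 for endothelial, 0.41 for S phase and mitosis, 0.63 for microglia, 0.87 for activated microglia and macrophage, 1.08 for complement, 1.15 for reactive astrocyte, 1.41 for MHC class I presentation, 1.41 for interferon-stimulated, 1.52 for B and plasma cell, 1.65 for chemokine, 1.76 for MHC class II presentation and 1.86 for T and NK cell. On leaving out a library the median of oligodendrocyte precursor genes ran from -0.087 to 0.058.

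Of 90 genes, 53 kept their sign under every alternative. With log2 depth as a covariate the log2 difference changed sign for Drd1a (-0.019), Drd2 (-0.064), Penk (-0.23), Ppp1r1b (-0.025), Actn2 (-0.11), Ifi27 (0.35), Irf9 (0.61), Xaf1 (0.72), B2m (1.27), H2-D1 (1.18), Psme2 (0.39), H2-DMb2 (0.80), Ciita (1.75), H2-Ab1 (2.66), Cxcr3 (1.02), Cd2 (0.69), Cd3e (1.96), Cd79b (0.96), Cd79a (0.75), Iglc2 (1.28), Cxcl9 (2.11), C4b (1.08), Gfap (1.32), Ccnb2 (0.78), Cdkn1a (0.30), Mcm2 (0.38), Isg15 (1.54), Ifit1 (1.09), Ifit3 (1.41), Igkc (2.58), Mki67 (0.76), Top2a (0.62), Cdk1 (1.09) and Cxcl13 (1.13). Gmnn did so with quantile normalization (0.011), array weights (0.087) and thinned reads (0.017), and Igkc did with edgeR (0.16). On leaving out a library the values ran from -0.057 to 0.10 for Penk, -0.12 to 0.10 for Gmnn, -1.998 to 0.24 for Ttr, -0.12 to 0.020 for Tac1, -0.015 to 0.10 for Ppp1r1b, -0.81 to 0.075 for Gfap, -0.79 to 0.00050 for Mki67 and -0.73 to 0.38 for Cdk1. With 4 libraries a group and 6091590 to 11069902 reads each, genes read a few times per library, such as Neurod6, Tbr1, Cd79a and Ccnb2, carry large errors.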
